A study of Mus musculus with 14 samples.

Results

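Hippocampal subfield marker genes were read in the whole dissected mouse hippocampus. The 10 genes are Prox1, C1ql2 and Dsp for the dentate gyrus, Wfs1, Fibcd1 and Pou3f1 for CA1, Bok for CA3, and Amigo2, Rgs14 and Pcp4 for CA2. They were taken by symbol from the 55536 Ensembl genes of the deposited count table, and all 10 are among the 38070 genes that were tested because their counts summed to 10 or more. The rule that picks them uses gene symbols and no measured value, but the genes were chosen with earlier results of these data known.

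The study asked whether the kinase activity of IRAK4, which relays Toll-like and interleukin-1 receptor signals, matters for brain disease in lupus-prone mice. Poly(A) RNA of PBS-perfused brains was sequenced in 14 hippocampal libraries at 10 months of age. The labels number the libraries of a group as separate samples without naming the animals, and each is taken here as 1 mouse. The 4 MRL mice carried the Faslpr mutation (strain B6.MRL-Faslpr/J) with intact IRAK4, and the 4 MRL-IRAK4-KD mice carried Faslpr together with kinase-dead IRAK4. The 3 C57BL6/J mice carried neither mutation, and the 3 mice labelled IRAK4-KD were to carry kinase-dead IRAK4 alone, which the Fas transcripts of 1 of them went against. All strains had a C57BL/6 background, neither mutation was limited to a cell type, and the labels name no treatment.

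The hippocampus is a chain of distinct fields. Granule cells of the dentate gyrus send mossy fibres to CA3 pyramidal cells, which in turn project to the pyramidal cells of CA1, while the small field CA2 between them is known for its part in social memory. Each field keeps a characteristic set of transcripts into adulthood, so that marker genes are widely used to tell the fields apart. Several markers are also used elsewhere, for example Pcp4 in the striatum.

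Total counts ranged from 279941472 to 572398312 per library, and every member had between 4668 and 69205 counts in each library, so counting error was small beside the differences between mice. Values of single mice are CPM, each gene's count relative to the library's total after TMM scaling, and differences are log2 fold changes from edgeR's quasi-likelihood fit of all 4 groups. A gene was called at a Benjamini-Hochberg adjusted p below 0.05 over all genes tested. In bulk tissue, fewer cells of a type and less RNA per cell cannot be told apart.

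Several libraries stood apart. MRL-IRAK4-KD 4 had a score of 113.4 on the first principal component (49.4% of the variance), against scores between -20.1 and 4.68 in all others, and its library was measured by qPCR at 13.5 nM, against 23.5 to 27.6 nM in the others. Its choroid plexus transcript Ttr reached 7631 CPM, against 48.5 to 1681 CPM elsewhere. Folr1, Kcne2 and Clic6 of the choroid plexus list were also highest there. Of the same list, Aqp1 at 7.33 CPM lay below MRL-IRAK4-KD 1 at 7.73 CPM, and Kl at 20.6 CPM was the lowest of its group. The library labelled IRAK4-KD 3 had 0 counts of the protein-coding Fas transcript Fas-201 and 514 of Fas-204, as did the 8 lpr libraries with 0 of the former and 268 to 964 of the latter. IRAK4-KD 1 and 2 had 360 and 386 counts of Fas-201 and 5 and 7 of Fas-204. Its 13 striatal genes summed to 698 CPM, against 151 to 243 CPM in the other 13 libraries. Of the MRL libraries, MRL 2 to 4 had neocortical Cux2 at 94.8, 68.7 and 75.1 CPM and MRL 1 had 28.7 CPM, within the 21.8 to 43.6 CPM of the other groups. Rorb, Rspo1, Cplx3 and Tbr1 of the neocortical list were also higher in MRL 2 to 4 than in MRL 1. Scnn1a went the other way, at 10.4 CPM in MRL 1 and 6.69, 6.98 and 6.58 CPM in MRL 2 to 4, and Fezf2 did not divide them. Results are therefore also given without MRL-IRAK4-KD 4, without the library labelled IRAK4-KD 3 or without MRL 1. Leaving out MRL 1 keeps MRL 2 to 4, with their high Cux2, as the whole MRL group, so those results are not freed of this difference.

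On a scale that corrects for transcript length (TPM), Pcp4 was the most abundant member at 322.5 ± 86.8 (SD, n = 14), above 99.4% of genes. Rgs14 followed at 61.7 ± 11.04 TPM, C1ql2 at 60.7 ± 17.02, Wfs1 at 54.1 ± 7.76 and Bok at 53.7 ± 13.1. Fibcd1 had 44.0 ± 10.6 TPM, Pou3f1 25.2 ± 9.17, Prox1 23.3 ± 7.17, Amigo2 18.0 ± 4.93 and Dsp, the lowest, 10.1 ± 3.76, still above 82.8% of genes. Apart from Pcp4 and Rgs14, every pair of neighbours in this order lay within the spread of one another. The labelled tissue thus held transcripts of the marker genes of every field, and no gene of any of the lists used here was at 0 in any library. As several markers are also used elsewhere, these values do not show that every field was in each piece.

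No member was called between MRL-IRAK4-KD and MRL mice, although 9 of 10 had a log2 fold change above 0. Calls at an adjusted p below 0.05 made up 0.0972% of all genes tested in this comparison, and a log2 fold change above 0 was found for 48.9% of them. The median log2 fold change was 0.38 over the members and -0.0023 over all genes tested. At an unadjusted p below 0.05 stood 4 of 10 members, all higher in MRL-IRAK4-KD mice, namely C1ql2, Fibcd1, Pou3f1 and Amigo2, against 11.4% of all genes tested in either direction and 6.23% in this direction. DESeq2 and limma-voom each called 1 member, Amigo2, where they called 1.04% and 0.609% of all genes tested. They had 4 and 6 members at an unadjusted p below 0.05, against 11.7% and 15.3% of all genes. Without MRL-IRAK4-KD 4, 2 of 10 members, Fibcd1 and Amigo2, remained at an unadjusted edgeR p below 0.05 against 8.52% of all genes. Without MRL 1, which leaves only the MRL libraries with high neocortical Cux2, the count was 7 of 10 against 10.7%.

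**Figure D1:**
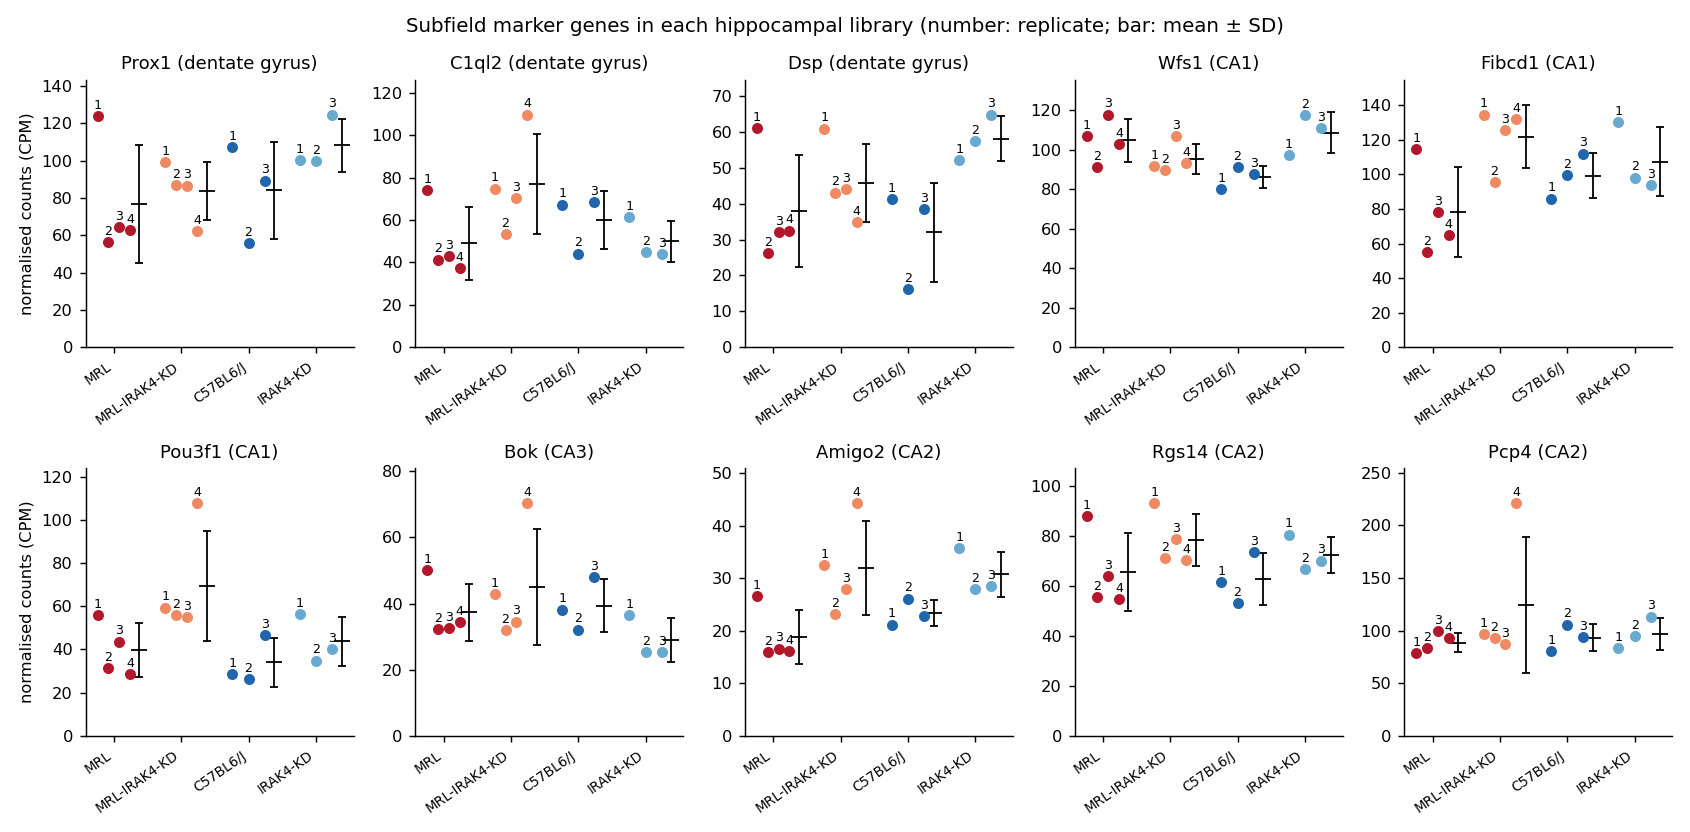
Normalised counts (CPM, vertical axis from 0) of the 10 members in each of the 14 libraries, by group; the number beside a point is the replicate, and the bar at the right of each group is the mean ± SD. MRL 1 lies above MRL 2 to 4 for 8 of the 10 genes, and MRL-IRAK4-KD 4 is the highest library for C1ql2, Pou3f1, Bok, Amigo2 and Pcp4.

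The dentate members were led by Prox1 (ENSMUSG00000010175.13, chr1:190118035-190170714 of mm10, minus strand), the homeobox factor that gives granule cells their identity and keeps it. Prox1 stood at 124, 56.4, 64.2 and 62.8 CPM in MRL 1 to 4, at 99.2, 86.8, 86.7 and 62.4 CPM in MRL-IRAK4-KD 1 to 4, at 107, 55.9 and 89.3 CPM in C57BL6/J 1 to 3, and at 100.4, 99.8 and 125 CPM in IRAK4-KD 1 to 3. The highest and lowest mice within the MRL and within the C57BL6/J group were farther apart than the means of any groups, and in both backgrounds the kinase-dead mice overlapped the intact ones. From MRL to MRL-IRAK4-KD the log2 fold change was 0.13 ± 0.25 (SE, edgeR adjusted p = 0.864), and it was 0.46 without MRL 1 and -0.0076 without MRL 2. Every IRAK4-KD library was above every MRL-IRAK4-KD library, and this was the single member whose groups did not overlap in that comparison, 4.43% of all genes being apart in this direction, with a log2 fold change of -0.37 (edgeR adjusted p = 0.627).

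Dsp (ENSMUSG00000054889.10, chr13:38151294-38198577, plus strand) encodes desmoplakin, which ties desmosomes to intermediate filaments and marks granule cells within the hippocampus. It had 61.1, 26.3, 32.1 and 32.5 CPM in MRL 1 to 4, 61.0, 43.1, 44.1 and 34.9 CPM in MRL-IRAK4-KD 1 to 4, 41.4, 16.2 and 38.5 CPM in C57BL6/J 1 to 3, and 52.2, 57.5 and 64.9 CPM in IRAK4-KD 1 to 3. MRL 1 was again far above MRL 2 to 4, and C57BL6/J 2 was the lowest of all libraries, as for Prox1. All 3 IRAK4-KD libraries were above all 3 C57BL6/J libraries, a log2 fold change of 0.86 ± 0.34 (SE, edgeR adjusted p = 1.0). Without C57BL6/J 2 it was 0.55, and without the library labelled IRAK4-KD 3 it was 0.78, neither with an unadjusted p below 0.05. The exact permutation test gave p = 0.1, the smallest that 3 mice against 3 allow.

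Prox1 and Dsp had the highest Pearson's r of the pairs of members over the 14 libraries, 0.89, narrowly above Fibcd1 with Amigo2 at 0.88. For Prox1 and Dsp the permutation p was 1e-05, the smallest that 100000 permutations can give (0.00045 adjusted over 45 pairs). Spearman's rho was 0.87 (permutation p = 0.00014, adjusted p = 0.0027), and r remained 0.88 without the 2 libraries farthest from the median of Prox1, C57BL6/J 2 and MRL 2. Without MRL-IRAK4-KD 4 and the library labelled IRAK4-KD 3, r was 0.88, below Fibcd1 with Amigo2 (0.92) and Pou3f1 with Rgs14 (0.91). On deviations from the group means the r of Prox1 and Dsp was 0.95. Their 250 bases upstream of the RefSeq start are printed for this pair, with E-boxes in capitals (CANNTG, the core bound by basic helix-loop-helix factors, which reads the same on both strands), from RefSeq on GRCm38.p6, the assembly named mm10.
Prox1, chr1:190170828-190171077, minus strand: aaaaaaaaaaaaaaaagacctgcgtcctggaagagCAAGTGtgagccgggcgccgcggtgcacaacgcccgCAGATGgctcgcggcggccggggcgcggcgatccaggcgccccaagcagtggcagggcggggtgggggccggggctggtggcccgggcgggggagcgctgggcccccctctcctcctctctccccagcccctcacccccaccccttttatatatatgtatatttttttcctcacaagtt
Dsp, chr13:38151044-38151293, plus strand: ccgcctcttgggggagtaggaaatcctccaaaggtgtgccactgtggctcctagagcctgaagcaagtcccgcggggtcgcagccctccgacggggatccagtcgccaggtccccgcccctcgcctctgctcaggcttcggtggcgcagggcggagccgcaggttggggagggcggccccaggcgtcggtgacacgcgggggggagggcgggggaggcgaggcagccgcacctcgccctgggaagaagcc
Prox1 held 2 E-boxes in this window and Dsp 0, so the pair shared no such letters there. Of 32851 promoters of that length, 66.2% held at least 1 and 31.8% at least 2. The RefSeq start of Prox1 lay 113 bases from that of its main transcript in GENCODE. Among the 8 members matched in the promoter table, C1ql2 and Wfs1 held 1 E-box each and Fibcd1, Bok, Amigo2 and Pcp4 held 0, and none held the cyclic AMP response element TGACGTCA, which 1.55% of all promoters held.

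C1ql2 (ENSMUSG00000036907.9, chr1:120340582-120343174, plus strand) encodes a secreted C1q-like protein that granule cells release at mossy fibre synapses. It had 74.2, 41.4, 42.9 and 37.2 CPM in MRL 1 to 4, 74.9, 53.3, 70.3 and 109.8 CPM in MRL-IRAK4-KD 1 to 4, 67.3, 44.1 and 68.4 CPM in C57BL6/J 1 to 3, and 61.3, 44.8 and 43.8 CPM in IRAK4-KD 1 to 3. MRL 1 lay among the MRL-IRAK4-KD mice and MRL 2 to 4 below all of them. Its log2 fold change of MRL-IRAK4-KD over MRL was 0.66 ± 0.25 (SE, edgeR adjusted p = 0.437), and the 2-sided exact permutation test gave p = 0.0857, where 4 mice against 4 cannot go below 0.0286. Without MRL-IRAK4-KD 4 the log2 fold change was 0.43 (edgeR adjusted p = 0.657). The direction between IRAK4-KD and C57BL6/J was the opposite, -0.26, and the interaction of background and mutation was 0.92 ± 0.38 (SE, edgeR adjusted p = 0.915).

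Among the CA1 members, Fibcd1 (ENSMUSG00000026841.7, chr2:31813290-31846005, minus strand) encodes a membrane receptor that binds chitin and acetylated sugars. It had 115, 55.0, 78.2 and 65.0 CPM in MRL 1 to 4, 135, 95.5, 126 and 132 CPM in MRL-IRAK4-KD 1 to 4, 86.0, 99.5 and 112 CPM in C57BL6/J 1 to 3, and 130.5, 98.1 and 94.0 CPM in IRAK4-KD 1 to 3. MRL 2 to 4 were the lowest 3 of all 14 libraries, and MRL 1 overlapped the other groups. The log2 fold change of MRL-IRAK4-KD over MRL was 0.64 ± 0.20 (SE, edgeR adjusted p = 0.403; exact permutation p = 0.0571), and it remained 0.60 without MRL-IRAK4-KD 4.

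Pou3f1 (ENSMUSG00000090125.3, chr4:124656807-124660655, plus strand) encodes a POU homeodomain factor. It had 55.9, 31.5, 43.6 and 28.5 CPM in MRL 1 to 4, 59.3, 56.0, 55.1 and 108 CPM in MRL-IRAK4-KD 1 to 4, 28.7, 26.4 and 46.8 CPM in C57BL6/J 1 to 3, and 56.3, 34.8 and 40.0 CPM in IRAK4-KD 1 to 3. Of all members it had the widest range, 4.08-fold between C57BL6/J 2 and MRL-IRAK4-KD 4, and MRL-IRAK4-KD 4 alone stood far above its group. The log2 fold change of MRL-IRAK4-KD over MRL was 0.80 ± 0.28 (SE, edgeR adjusted p = 0.432; exact permutation p = 0.0571). Without that library it was 0.51 (edgeR adjusted p = 0.619).

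Wfs1 (ENSMUSG00000039474.13, chr5:36966104-36989205, minus strand), whose product wolframin is a membrane glycoprotein of the endoplasmic reticulum, went its own way. It had 107, 91.4, 118 and 103 CPM in MRL 1 to 4, 91.6, 89.8, 107 and 93.3 CPM in MRL-IRAK4-KD 1 to 4, 80.0, 91.3 and 87.5 CPM in C57BL6/J 1 to 3, and 97.2, 118 and 111 CPM in IRAK4-KD 1 to 3. C57BL6/J mice were below every MRL and every IRAK4-KD mouse, by a narrow margin in MRL 2. Its spread over the 14 libraries was the smallest of the members, a coefficient of variation of 11.8%, against a median of 13.98% over the 10243 genes at a mean of 10 CPM or more.

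Wfs1 alone had a negative log2 fold change of MRL-IRAK4-KD over MRL, -0.14 ± 0.10 (SE, edgeR adjusted p = 0.567). Its log2 fold change of IRAK4-KD over C57BL6/J was 0.33 ± 0.12 (SE, edgeR adjusted p = 1.0), and that of MRL over C57BL6/J was 0.28 ± 0.11 (SE, edgeR adjusted p = 0.875). The interaction was -0.47 ± 0.15 (SE, edgeR adjusted p = 0.915), a difference that did not pass the threshold. Without MRL-IRAK4-KD 4 and the library labelled IRAK4-KD 3 together it was -0.44 (edgeR adjusted p = 1.0).

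Bok (ENSMUSG00000026278.14, chr1:93685660-93695764, plus strand), a member of the BCL-2 family of cell death regulators, stood for CA3. It had 50.2, 32.3, 32.5 and 34.3 CPM in MRL 1 to 4, 43.0, 31.9, 34.5 and 70.3 CPM in MRL-IRAK4-KD 1 to 4, 38.2, 32.1 and 47.9 CPM in C57BL6/J 1 to 3, and 36.5, 25.2 and 25.2 CPM in IRAK4-KD 1 to 3. MRL-IRAK4-KD 4 stood above all other libraries, IRAK4-KD 2 and the library labelled IRAK4-KD 3 lay below all others, and the rest overlapped across groups. The log2 fold change of MRL-IRAK4-KD over IRAK4-KD was 0.63 ± 0.27 (SE, edgeR adjusted p = 0.553), and 0.33 without MRL-IRAK4-KD 4 (edgeR adjusted p = 0.645).

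Among the CA2 members, Amigo2 (ENSMUSG00000048218.6, chr15:97244125-97247287, minus strand) encodes an adhesion protein with leucine-rich repeats and an immunoglobulin domain. It had 26.6, 15.9, 16.6 and 16.1 CPM in MRL 1 to 4, 32.4, 23.2, 27.9 and 44.2 CPM in MRL-IRAK4-KD 1 to 4, 21.2, 26.1 and 22.8 CPM in C57BL6/J 1 to 3, and 35.7, 27.9 and 28.5 CPM in IRAK4-KD 1 to 3. MRL 2 to 4 were the lowest 3 of all libraries, MRL 1 was the one MRL mouse above any MRL-IRAK4-KD mouse, and every IRAK4-KD library was above every C57BL6/J library. The mean of the MRL group was 18.8 ± 5.21 CPM (SD, n = 4), that of MRL-IRAK4-KD mice 31.9 ± 9.02 CPM (n = 4), that of C57BL6/J mice 23.4 ± 2.53 CPM (n = 3) and that of IRAK4-KD mice 30.7 ± 4.32 CPM (n = 3).

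Amigo2 had the smallest p of the members. Its log2 fold change of MRL-IRAK4-KD over MRL was 0.77 ± 0.20 (SE, edgeR adjusted p = 0.336; exact permutation p = 0.0571), a fold of 1.70. It was not called by edgeR, whereas DESeq2 gave 0.76 with an adjusted p of 0.0486 and limma-voom 0.69 with an adjusted p of 0.0337. Leaving out each mouse in turn gave between 0.56, without MRL-IRAK4-KD 4, and 0.99, and over all alternatives the adjusted p lay between 0.0337 and 0.643.

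Amigo2 lies 2.66 Mb from the mutated gene, Irak4, on chromosome 15, and the part of other sequence linked to the mutation was not tested. Of the 24 genes tested between them, 2 (8.33%) had an unadjusted p below 0.05 when MRL-IRAK4-KD mice were compared with MRL mice, against 11.4% of all genes tested, and 1 (4.17%) when IRAK4-KD mice were compared with C57BL6/J mice, against 3.8%. None of the 24 was called by edgeR in either comparison.

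Rgs14 (ENSMUSG00000052087.14, chr13:55369732-55384687, plus strand) encodes a scaffold of G protein and MAP kinase signalling that restrains synaptic plasticity in CA2. It had 88.1, 55.5, 64.0 and 54.7 CPM in MRL 1 to 4, 93.2, 71.2, 78.9 and 70.6 CPM in MRL-IRAK4-KD 1 to 4, 61.5, 53.2 and 73.8 CPM in C57BL6/J 1 to 3, and 80.7, 66.9 and 70.3 CPM in IRAK4-KD 1 to 3. MRL 2 to 4 lay below all MRL-IRAK4-KD mice, MRL 1 among them, and the log2 fold change was 0.26 ± 0.16 (SE, edgeR adjusted p = 0.491). Without MRL 1 it was 0.44 (edgeR adjusted p = 0.273).

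Pcp4 (ENSMUSG00000090223.2, chr16:96467606-96525793, plus strand) encodes a small peptide that tunes calmodulin. It had 78.9, 83.0, 99.4 and 92.8 CPM in MRL 1 to 4, 96.8, 93.0, 86.9 and 221 CPM in MRL-IRAK4-KD 1 to 4, 80.3, 106 and 93.7 CPM in C57BL6/J 1 to 3, and 83.1, 94.8 and 113 CPM in IRAK4-KD 1 to 3. All libraries but MRL-IRAK4-KD 4 lay in 1 band without order by group, and the second highest value, in the library labelled IRAK4-KD 3, went with its striatal transcripts, whose part in that value was not tested. The log2 fold change of MRL-IRAK4-KD over MRL was 0.49 ± 0.25 (SE, edgeR adjusted p = 0.446), and 0.05 without MRL-IRAK4-KD 4 (edgeR adjusted p = 0.972).

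**Figure D2:**
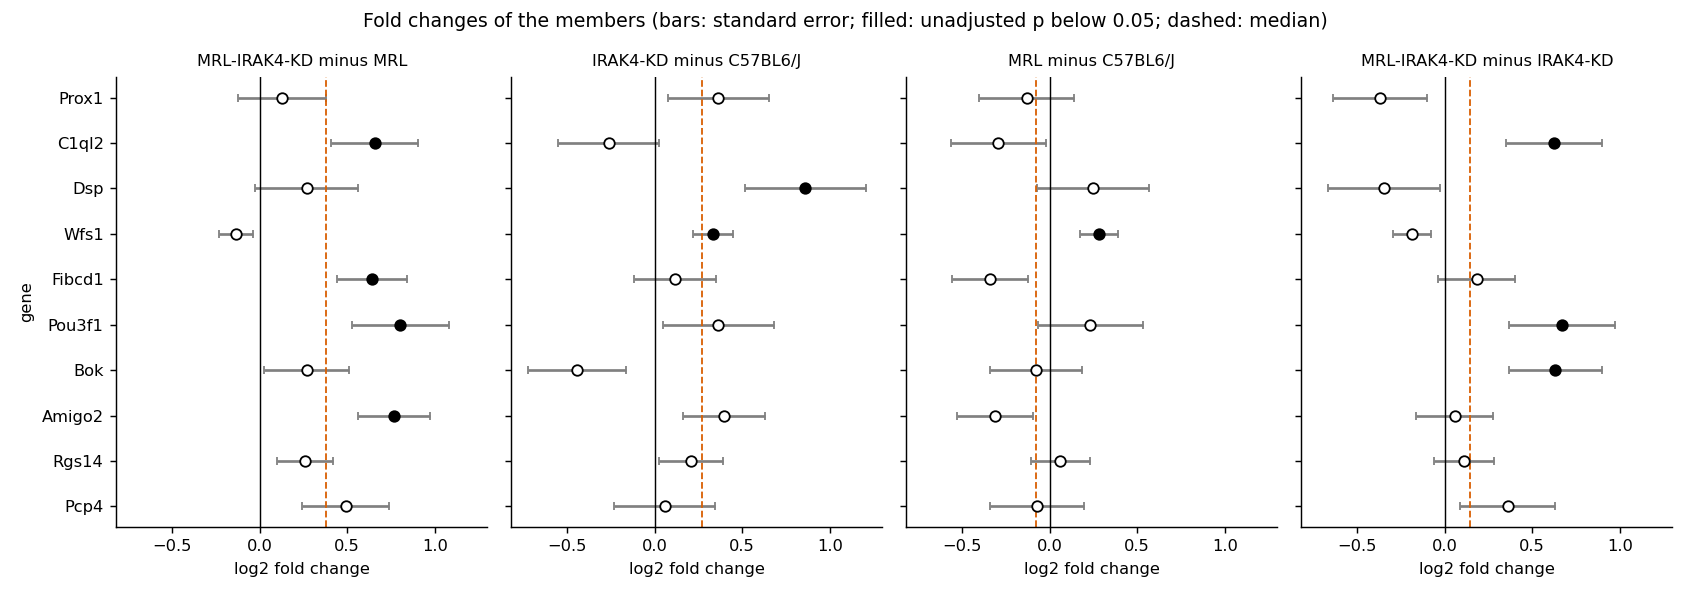
Log2 fold changes (horizontal axis, points) with standard errors (bars) of the 10 members in 4 comparisons of groups; filled points have an unadjusted edgeR p below 0.05, and the dashed line is the median of the members. The median is 0.38 for MRL-IRAK4-KD over MRL and -0.08 for MRL over C57BL6/J, and no member is called in any of them.

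Between IRAK4-KD and C57BL6/J mice, 0 of 10 members were called by edgeR, DESeq2 or limma-voom, against 0.147% of all genes tested by edgeR. Dsp and Wfs1 were at an unadjusted p below 0.05, 2 of 10 against 3.8% of all genes. The groups did not overlap, with IRAK4-KD higher, for 3 members (Dsp, Wfs1 and Amigo2), against 5.63% of all genes tested, and 3 mice against 3 cannot give an exact permutation p below 0.1. The log2 fold change lay above 0 for 8 of 10 members, against 47.0% of all genes, with a median of 0.27, and for 7 of 10 without the library labelled IRAK4-KD 3, with a median of 0.24. In the latter case Wfs1 alone remained at an unadjusted p below 0.05, 1 of 10 against 2.68% of all genes. The striatal list, whose sum set that library apart, had 7 of 13 genes at this threshold in the comparison of all mice, and its part in the members' values was not tested.

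Between MRL and C57BL6/J mice, 0 of 10 members were called by any of the 3 tools, as were 0.0% of all genes tested by edgeR. Wfs1 was the 1 member at an unadjusted p below 0.05, against 5.55% of all genes, and the 1 member whose groups did not overlap, against 4.47% in that direction. The median of the members was -0.08, and 4 of 10 lay above 0, against 48.1% of all genes tested. Without MRL 1, 2 of 10 lay above 0 and 4 of 10 were at an unadjusted p below 0.05, against 5.54% of all genes.

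Between MRL-IRAK4-KD and IRAK4-KD mice, 0 of 10 members were called by any of the 3 tools, against 0.0735% of all genes tested by edgeR. C1ql2, Pou3f1 and Bok were at an unadjusted p below 0.05, 3 of 10 against 8.63% of all genes, all higher in MRL-IRAK4-KD mice, and 7 of 10 lay above 0 against 49.4%. Without MRL-IRAK4-KD 4 the count at an unadjusted p below 0.05 was 0 of 10 against 8.51%, without the library labelled IRAK4-KD 3 it was 0 of 10 against 4.45%, and the median went from 0.15 to 0.03 and 0.09.

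Averaged over both backgrounds, kinase-dead against intact IRAK4 gave 0 of 10 members called by edgeR, against 0.213% of all genes tested, and 1 of 10, Amigo2, by DESeq2 and by limma-voom, against 1.34% and 1.12%. Dsp, Fibcd1, Pou3f1 and Amigo2 were at an unadjusted p below 0.05, 4 of 10 against 8.86% of all genes, and 9 of 10 members lay above 0, against 48.7%. The log2 fold change was 0.58 for Amigo2 (SE 0.16, edgeR adjusted p = 0.281), 0.58 for Pou3f1, 0.56 for Dsp and 0.38 for Fibcd1. The exact permutation test within backgrounds gave p = 0.00571 for Amigo2, 0.0229 for Pou3f1, 0.0271 for Dsp and 0.0429 for Fibcd1, before any adjustment over the 10 members. Without both MRL-IRAK4-KD 4 and the library labelled IRAK4-KD 3, 1 of 10, Amigo2 at 0.51, remained at an unadjusted edgeR p below 0.05 (adjusted p = 0.234), against 10.9% of all genes, and without MRL 1 the count was 6 of 10 against 9.82%.

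Averaged over both Irak4 genotypes, lpr against non-lpr mice gave 0 of 10 members called by any of the 3 tools, against 0.0657% of all genes tested by edgeR, and 0 of 10 at an unadjusted p below 0.05 against 10.2%. DESeq2 had 1 at that threshold and limma-voom 2, against 10.5% and 16.3%. Here the library labelled IRAK4-KD 3 counted as non-lpr, against its Fas transcripts, and without it the count was 0 of 10 against 7.69%. Of the 10 members 6 had a log2 fold change above 0, against 49.4%. Pou3f1 was nearest, with a log2 fold change of 0.45 ± 0.21 (SE, edgeR adjusted p = 0.498), and 0.27 without both MRL-IRAK4-KD 4 and the library labelled IRAK4-KD 3. For the interaction 0 of 10 were called by any of the 3 tools, against 0.00263% of all genes by edgeR, and 2 of 10, C1ql2 and Wfs1 in opposite directions, were at an unadjusted p below 0.05 against 4.17%, while 7 of 10 lay above 0 against 50.3%. Without MRL 1 the count at that threshold was 5 of 10 against 4.37%, and without MRL-IRAK4-KD 4 it was 1 of 10 against 4.8%. In the test for any difference among the 4 groups edgeR called 0 of 10 members, against 0.302% of all genes, DESeq2 0 and limma-voom 1, Amigo2, against 2.51%. Wfs1, Fibcd1, Pou3f1 and Amigo2, 4 of 10, had an unadjusted edgeR p below 0.05 in that test, against 8.84%. It was 2 of 10 against 13.1% without MRL-IRAK4-KD 4 and 7 of 10 against 9.5% without MRL 1.

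The order of the group means differed between members. MRL mice had the lowest mean for Prox1, C1ql2, Fibcd1, Amigo2 and Pcp4, C57BL6/J mice for Dsp, Wfs1, Pou3f1 and Rgs14, and IRAK4-KD mice for Bok. MRL-IRAK4-KD mice had the highest mean for 7 members and IRAK4-KD mice for Prox1, Dsp and Wfs1. Neighbouring groups in these orders overlapped in every case but 1, C57BL6/J and IRAK4-KD for Amigo2. The highest group mean exceeded the lowest by between 1.25-fold for Rgs14 and 2.05-fold for Pou3f1.

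**Figure D3:**
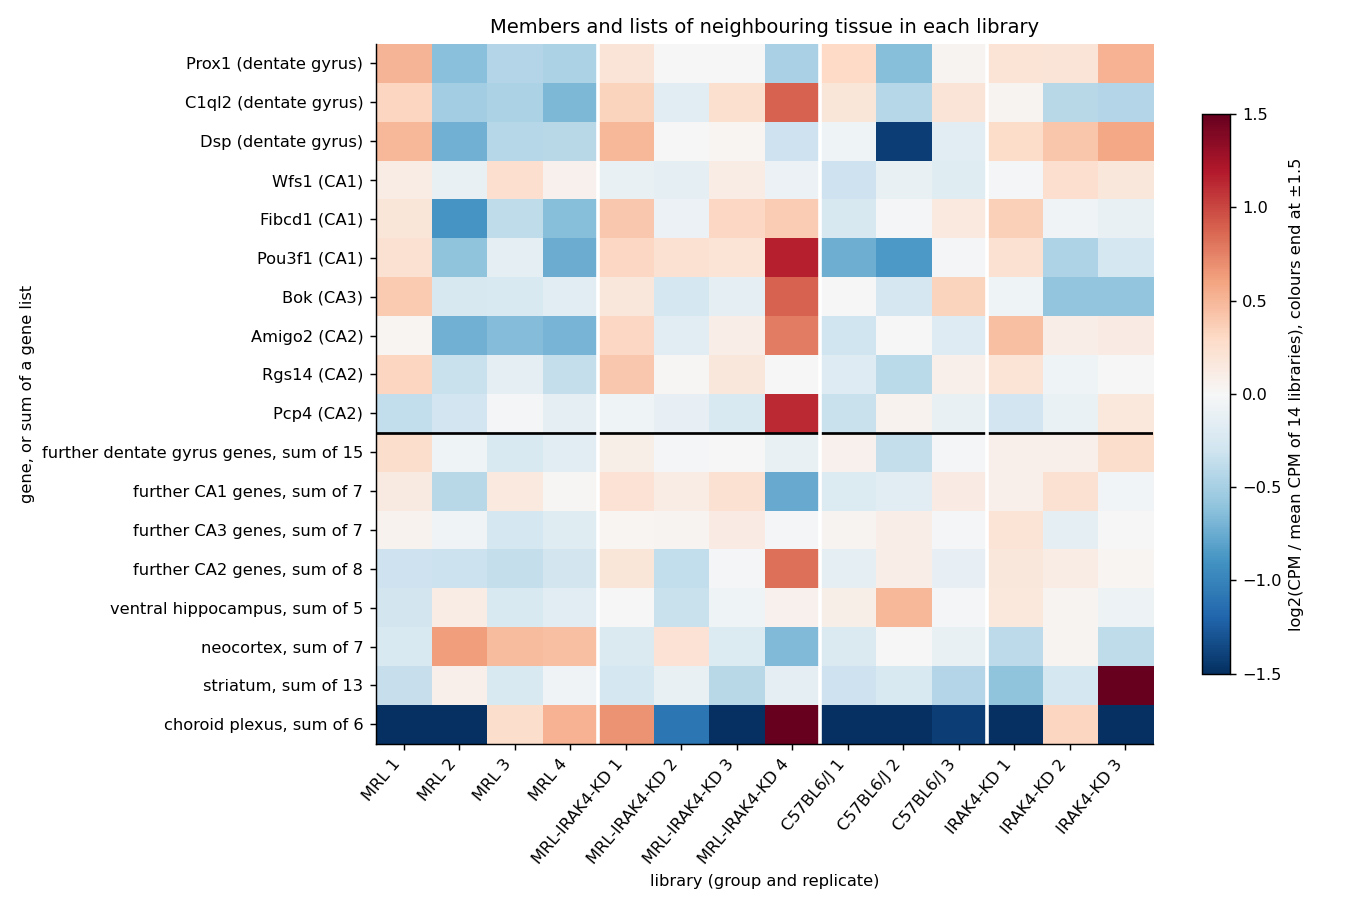
Log2 ratio of each library to the mean of the 14 libraries (colour) for the 10 members and, under the black line, for the summed CPM of lists of further hippocampal genes and of genes of neighbouring tissues. MRL 2 to 4 are low in most members and high in the neocortical sum, MRL-IRAK4-KD 4 is high in Pcp4 and Amigo2 but not in Rgs14 and is high in the CA2 and choroid plexus sums, and the library labelled IRAK4-KD 3 is high in the striatal sum.

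Mice within a group differed as much as groups did, and the MRL group divided most clearly. Against the mean of the other 3 MRL mice, MRL 1 was 2.02-fold higher for Prox1, 2.01 for Dsp, 1.83 for C1ql2, 1.74 for Fibcd1, 1.64 for Amigo2, 1.62 for Pou3f1, 1.52 for Bok and 1.52 for Rgs14. These values were above those of 97.6% or more of the 16104 genes at a mean of 1 CPM or more, while Wfs1 at 1.03 and Pcp4 at 0.86 were not set apart. The 7 neocortical genes summed to 147 CPM in MRL 1 and to 265, 239 and 235 CPM in MRL 2 to 4, against 109 to 200 CPM in the other groups. Within the MRL group the neocortical sum thus went opposite to 8 of 10 members, and its part in their difference from MRL-IRAK4-KD mice was not tested.

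C57BL6/J 2 was the lowest of all libraries for Prox1, Dsp, Pou3f1 and Rgs14. Its 5 genes of ventral hippocampus summed to 212 CPM, the highest of all, against 119 to 168 CPM in the others, and the dentate gene Lct was at 15.5 CPM against 24.9 to 55.2 CPM. Where along the length of the hippocampus each piece was cut is not given in the sources used here, and the part of these transcripts in the low values was not tested.

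**Figure D4:**
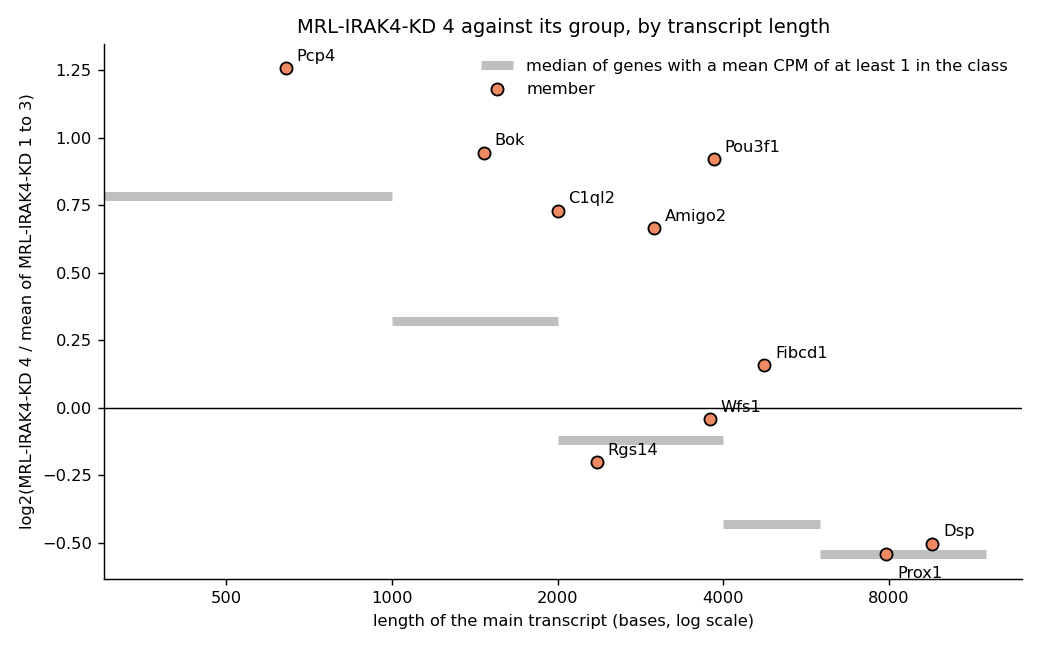
Log2 ratio of MRL-IRAK4-KD 4 to the mean of MRL-IRAK4-KD 1 to 3 (vertical axis) against the length of the main transcript in bases (horizontal log axis) for the 10 members (points) and the median of genes at a mean of 1 CPM or more in 5 length classes (grey bars). The medians fall from 0.78 in the shortest class to -0.54 in the longest, and the members run from 1.26 for Pcp4 to -0.54 for Prox1.

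In MRL-IRAK4-KD 4 the members with the shortest transcripts were higher, and those with the longest lower, than in the rest of the group. Against the mean of MRL-IRAK4-KD 1 to 3, the short transcript of Pcp4 (641 bases) was 2.39-fold higher, that of Bok (1468 bases) 1.93-fold and that of C1ql2 (2000 bases) 1.66-fold, while the long ones of Prox1 (7913 bases) and Dsp (9592 bases) were at 0.69-fold and 0.71-fold. All genes at a mean of 1 CPM or more went the same way, with a median log2 ratio of 0.78 for the 1473 genes of up to 1000 bases and -0.54 for the 2015 genes over 6000 bases. The next widest medians, in MRL-IRAK4-KD 2, were -0.37 and 0.20, where the comparison included MRL-IRAK4-KD 4 itself. Pou3f1 and Amigo2 lay above their length class, at 1.89-fold and 1.59-fold, where the median log2 ratio of genes of 2001 to 4000 bases was -0.12. Fibcd1, at 1.12-fold, lay above the median of -0.43 of genes of 4001 to 6000 bases, and Pcp4, Bok and C1ql2 were above the medians of their classes too. Rgs14 (2356 bases), at 0.87-fold, lay below the median of its class, and Wfs1 (3787 bases), at 0.97-fold, was near it.

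Most members were carried by 1 transcript. The main transcript held 93.9% or more of the counts of Prox1, C1ql2, Wfs1, Fibcd1, Pou3f1, Bok, Rgs14 and Pcp4 in every library. Dsp was divided between Dsp-201 (9592 bases), with a median of 68.1%, and Dsp-202 (7761 bases), with 31.9%, and Amigo2 between Amigo2-202 (median 89.6%) and Amigo2-201 (10.4%). In MRL-IRAK4-KD 4 these shares were the extremes of all libraries, 92.4% for Dsp-201 and all counts for Amigo2-202. The transcripts overlap over most of their length, so that StringTie's division of reads between them is uncertain.

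Over the 45 pairs of members, 36 correlations across the 14 libraries were positive, with a median Pearson's r of 0.41, and 14 had a permutation p below 0.05 after adjustment over the 45. Of these, 12 were among the 36 pairs of different fields and 2, Prox1 with Dsp and Fibcd1 with Pou3f1, among the 9 pairs of the same field. Without MRL-IRAK4-KD 4 and the library labelled IRAK4-KD 3, 13 pairs passed, 9 of different fields and 4 of the same field, and the median r was 0.52. The median r was 0.31 for pairs of the same field and 0.41 for pairs of different fields over all libraries, and 0.62 and 0.49 without the 2 libraries, so that the order turned. Whether the 2 kinds of pair differ was not tested. The libraries differ in group as well as in the transcripts of neighbouring tissue, and both are shared by all pairs.

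Between fields, Fibcd1 of CA1 and Amigo2 of CA2 were closest, with r = 0.88 (permutation p = 5e-05, adjusted p = 0.00112), rho = 0.83 (adjusted permutation p = 0.00506), r = 0.82 without MRL 2 and MRL 4, the libraries farthest from the median of Fibcd1, and r = 0.80 on deviations from group means. C1ql2 and Bok had r = 0.84 (adjusted permutation p = 0.00135) and rho = 0.74 (adjusted permutation p = 0.0203), with r = 0.81 without MRL-IRAK4-KD 4 and MRL 4. Prox1 and C1ql2, both of the dentate gyrus, had r = 0.27 (adjusted permutation p = 0.459) over all libraries and r = 0.61 without MRL-IRAK4-KD 4, in which C1ql2 was the highest of all and Prox1 among the lowest. Wfs1 correlated with no other member, its r lying between -0.40 and 0.31, and the r of Pcp4 lay between -0.34 and 0.55.

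**Figure D5:**
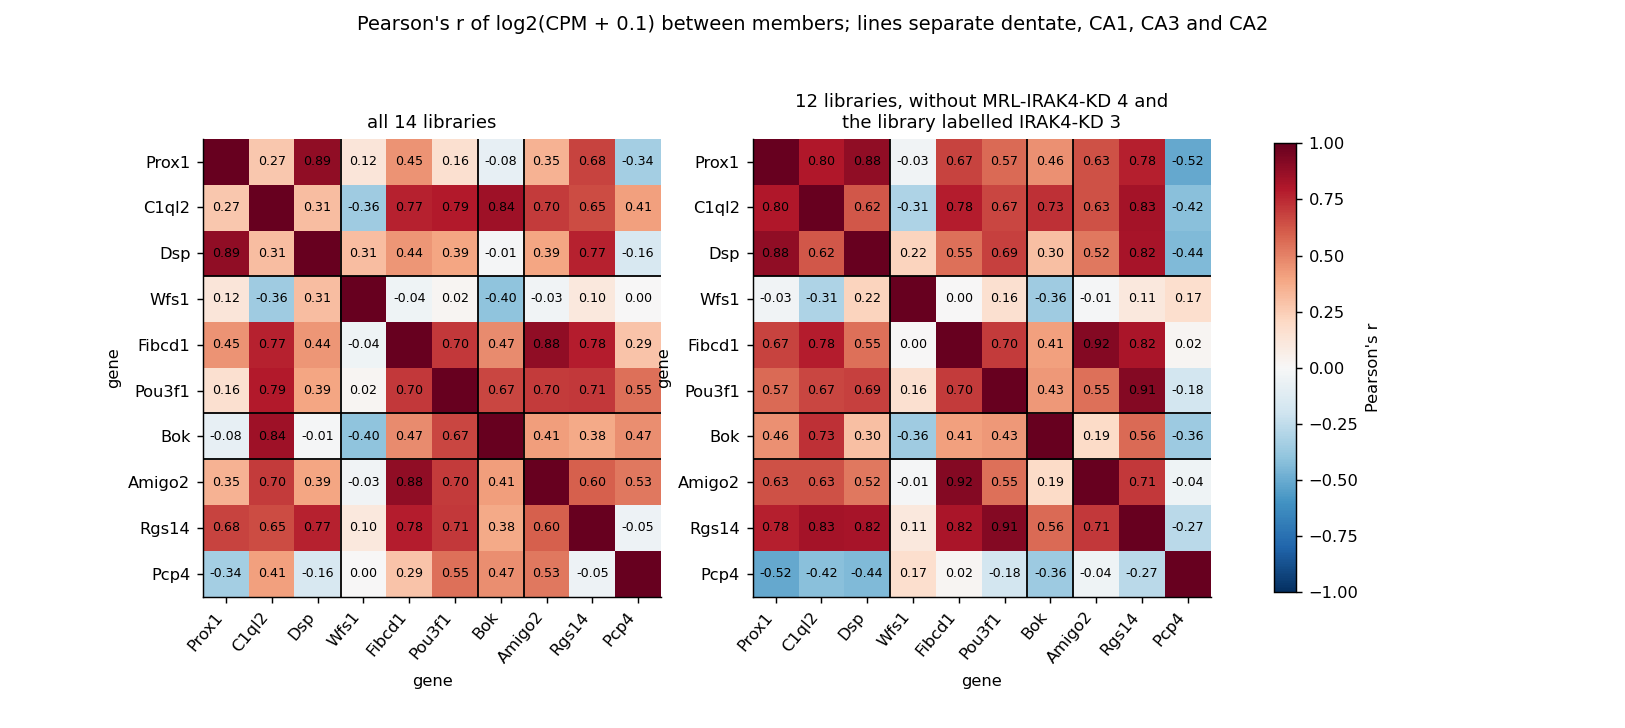
Pearson's r of log2(CPM + 0.1) between members (colour and number) over all 14 libraries (left) and over 12 libraries without MRL-IRAK4-KD 4 and the library labelled IRAK4-KD 3 (right). On the left Wfs1 has no r above 0.31, while Pcp4 reaches 0.55 with Pou3f1. On the right Pcp4 has no r above 0.17. Prox1 with C1ql2 goes from 0.27 on the left to 0.80 on the right.

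The genes whose pattern over the 14 libraries was most like each member's were sought among 16094 genes at a mean of 1 CPM or more, as a description with no test. Sema5a (r = 0.98) and Dock10 (r = 0.95) were nearest to Prox1, and Cd38 and Lct (both at r of 0.92 or more) to Dsp. Sema5a, Dock10 and Lct are themselves on the list of further dentate genes used here, which was chosen with earlier results of these data known. C1ql2 was followed by Kcng2 (r = 0.95) and Wscd1 (r = 0.94), Fibcd1 by Atxn10 (r = 0.97) and the CA3 gene Grik4 (r = 0.94), and Pou3f1 by Dnm1 (r = 0.96) and Desi1 (r = 0.95). Amigo2 was followed by Rnf128 (r = 0.98) and Faim (r = 0.96), Rgs14 by Arhgef25 (r = 0.95) and Ptk2b (r = 0.94), and Bok by Nrros and Mrm2 (both at r = 0.94). Pcp4 was followed by Cwf19l2 (r = 0.96) and Zdhhc20 (r = 0.95), whose highest values were 36.2 and 109 CPM against medians of 17.2 and 61.8 CPM. Wfs1 had the least similar neighbours, Slc38a2 (r = 0.78) and the corticosteroid-induced kinase gene Sgk1 (r = 0.75).

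Further genes of each field were read beside the members. These lists were chosen with earlier results of these data known, so their counts beside all genes are a description and not independent support. None of the 15 dentate, 7 CA1, 7 CA3 and 8 CA2 genes was called by edgeR in any comparison of all libraries. Without MRL 1 it called Grik4 of CA3 between MRL-IRAK4-KD and MRL mice, and without MRL-IRAK4-KD 4 it called Cacng5 and Map3k15 of CA2 between IRAK4-KD and C57BL6/J mice. Cacng5 was also called without MRL-IRAK4-KD 4 among the 4 groups and, without that library or without MRL-IRAK4-KD 2, in the mean of kinase-dead against intact IRAK4. Between MRL-IRAK4-KD and MRL mice, 6 of 8 CA2 genes were at an unadjusted p below 0.05, all higher in MRL-IRAK4-KD mice, where 6.23% of all genes tested were, and their median log2 fold change was 0.48. Without MRL-IRAK4-KD 4 it was 4 of 8 in either direction, against 8.52%, with a median of 0.30. The counts at that threshold were 1 of 15 dentate genes (median 0.02), 3 of 7 CA1 genes (median 0.13) and 3 of 7 CA3 genes (median 0.03), 1 of each of the last 2 lists being lower. Without MRL-IRAK4-KD 4 they were 2 of 15 (median 0.09), 3 of 7 (median 0.37) and 2 of 7 (median 0.29), so that the CA2 median was no longer the highest.

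Of the CA2 genes, Avpr1b, the vasopressin receptor through which CA2 acts in social memory, came first by size of the log2 fold change, at 0.89 ± 0.39 (SE, edgeR adjusted p = 0.439), from values between 0.182 and 0.677 CPM in MRL and between 0.536 and 0.914 CPM in MRL-IRAK4-KD mice, so that the groups overlapped. Necab2, a calcium-binding protein gene, followed with 0.69 ± 0.25 (SE, edgeR adjusted p = 0.437), and reached 188 CPM in MRL-IRAK4-KD 4 against 61.6 to 98.2 CPM in the other 3, while Vit, picked out here after its values had been seen, was lowest there at 3.27 CPM against 4.91 to 7.09 CPM. Averaged over both backgrounds, 5 of 8 CA2 genes were higher in kinase-dead mice at an unadjusted p below 0.05, where 3.85% of all genes were, and 1 was lower. Avpr1b had 1.07 there (SE 0.30, edgeR adjusted p = 0.299), and Cacng5, a modulator of AMPA receptors, 0.56 ± 0.11 (SE, edgeR adjusted p = 0.0579).

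Cacng5 stood at 9.87, 8.67, 9.52 and 8.61 CPM in MRL 1 to 4, at 14.1, 9.71, 10.8 and 14.8 CPM in MRL-IRAK4-KD 1 to 4, at 8.30, 7.94 and 7.18 CPM in C57BL6/J 1 to 3, and at 11.7, 11.8 and 14.4 CPM in IRAK4-KD 1 to 3. Kinase-dead mice were above intact mice of the same background in every case but MRL-IRAK4-KD 2, which lay just under MRL 1. In the mean over both backgrounds, DESeq2 and limma-voom both called Cacng5 (adjusted p = 0.000261 and 0.0156), Map3k15 (adjusted p = 0.00981 and 0.0420) and Stard5 (adjusted p = 0.0170 and 0.0240) higher in kinase-dead mice. Avpr1b was called there by DESeq2. These calls were not limited to CA2, as both tools also called the CA3 gene Cdh24 higher (adjusted p = 0.0236 and 0.045). The CA1 genes Gpr161 and Spink8 were called higher by limma-voom (adjusted p = 0.0491 and 0.0497). Map3k15, at a log2 fold change of 0.82 between IRAK4-KD and C57BL6/J mice (SE 0.17, edgeR adjusted p = 0.150), and Stard5 were picked out here after their values had been seen. Between IRAK4-KD and C57BL6/J mice DESeq2 and limma-voom called Map3k15 (adjusted p = 0.00073 and 0.0234), where they called 0.426% and 0.381% of all genes tested. DESeq2 also called Cacng5 there (adjusted p = 0.0143).

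Of the other fields, the CA1 gene Spink8 had a log2 fold change of 1.04 between MRL-IRAK4-KD and MRL mice (SE 0.28, edgeR adjusted p = 0.336) and the CA3 gene Grik4, a kainate receptor subunit, 0.68 ± 0.17 (SE, edgeR adjusted p = 0.320). DESeq2 and limma-voom called both in that comparison, and also Cdh24 of CA3 (adjusted p = 0.0285 and 0.0384). Coch on the CA3 list (-1.17, edgeR adjusted p = 0.437) went the other way and was highest in MRL 2 to 4, as were the neocortical genes Cux2 and Rspo1. Of the dentate genes, Tdo2, which encodes tryptophan dioxygenase, had 0.60 ± 0.23 (SE, edgeR adjusted p = 0.437) and Maml2, a Notch coactivator, 0.60 ± 0.29 (SE, edgeR adjusted p = 0.440).

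The lists of neighbouring tissues were read in the same comparison of MRL-IRAK4-KD with MRL mice, and none of their genes was called by edgeR. Of all genes tested, 11.4% were at an unadjusted p below 0.05 in this comparison. The neocortical list had 4 of 7 genes at an unadjusted p below 0.05, 3 of them lower in MRL-IRAK4-KD mice, and the list's median was -0.66, led by Rspo1 at -1.73 and Cux2 at -1.14. The ventral list had 2 of 5 such genes (median -0.04), the thalamic list 1 of 8 (median 0.04), and the striatal list 0 of 13 (median -0.22). The choroid plexus list had 0 of 6 (median 0.64) with sums between 64.1 and 1641 CPM in MRL and between 149 and 7744 CPM in MRL-IRAK4-KD mice, and the myelin list 0 of 6 (median 0.14). Each sum overlapped between the groups, and their part in the members' values was not tested.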

How the data were processed

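Hippocampal poly(A) RNA was sequenced in 14 libraries, each taken as 1 mouse. According to the submitters' notes, HISAT2 2.1.0 (alignment to mm10), SAMtools 1.9 and StringTie 2.1.0 were the tools with which the authors made the gene and transcript counts. StringTie turns the coverage of a transcript into a count by way of a set read length, so the deposited counts are not tallies of single reads. Of 81881 rows of the gene table, 26345 were tRNA and spike-in rows, which held between 0.0254% and 0.188% of counts and were left out.

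Groups came from the sample labels. Genes with counts summing to 10 or more were fitted in edgeR 4.0.16 (R 4.3.3) by quasi-likelihood with TMM factors (0.961 to 1.03) and robust dispersion over all 4 groups, with Benjamini-Hochberg adjustment. DESeq2 1.42.0, limma-voom with quality weights (limma 3.58.1), other scalings, another filter, a replicate block and leaving out each mouse were alternatives. CPM and TPM were computed from the deposited counts, with transcript lengths from GENCODE M21. Single members were compared by 2-sided exact permutation tests of log2(CPM + 0.1), and pairs by 100000 permutations (numpy 2.4.6, scipy 1.17.1, Python 3.11.15). The fit was tested on simulated counts.

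Named genes were the 10 members, the 2 genes most correlated with each, and from each further list every called gene or else the 2 with the largest log2 fold change, of which 1 is not reported here. The members and lists were chosen with earlier results of these data known. Replicate numbers did not mark shared animals, and deviations of same-numbered mice from their group means correlated between -0.26 and 0.38, so no pairing was used. The labels do not name separate animals, so p-values measure only the spread between these libraries, which may be technical.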

Additional observations from a re-analysis of the deposited data

Results flagged for a closer look

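In groups of 4 mice, 1 mouse stood far outside the other 3 in 6 of 20 combinations of member and group. By chance the rule picks out about 1 in 20. The share of all genes that it sets apart in these libraries is not given here, so the count is no result about the members. MRL 1 was the mouse set apart for Prox1, at 123.8 CPM, where its gap to the next mouse took 0.885 of the range of the group. It was likewise set apart for C1ql2 at 74.2 CPM (0.846 of the range), for Bok at 50.2 CPM (0.888) and for Amigo2 at 26.59 CPM (0.935). The 4 genes belong to the dentate gyrus, CA3 and CA2, and their values come from the same library, so that the 4 cases are not independent.

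MRL-IRAK4-KD 4 was set apart for Pou3f1, at 107.6 CPM with a gap of 0.920 of the range, and for Pcp4, at 220.8 CPM with a gap of 0.926. It is the library with the low qPCR concentration and the length-dependent shift of all genes, whose part in these values was not tested. Its ratio to the rest of the group was above that of 89.0% of genes for Pou3f1 and 94.7% for Pcp4.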

How the results depend on the processing

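With DESeq2 and with limma-voom, 1 member, Amigo2, was called in place of 0 between MRL-IRAK4-KD and MRL mice and in the mean of kinase-dead against intact IRAK4, and with limma-voom also 1 among the 4 groups. The cause was not tested. Of 211 recomputed answers to comparisons, 204 kept their count or stayed within 1.5 times of it, and of 823 other recomputed values and counts 802 did. The 16 combinations of member and comparison with an unadjusted p below 0.05 were picked in these same data, so reversals were unlikely. Of their recomputed log2 fold changes, 0 of 378 reversed. For the other 54 combinations, 46 of 1272 did, in 20 combinations, among them Bok between MRL-IRAK4-KD and MRL mice (0.27 to -0.04) and Pcp4 between MRL-IRAK4-KD and IRAK4-KD mice (0.36 to -0.07), both without MRL-IRAK4-KD 4, and Dsp between MRL and C57BL6/J mice (0.25 to -0.07) without MRL 1. Leaving out each mouse in turn gave between 0 and 0 members called in all 8 comparisons. It gave between 7 and 14 correlated pairs, from 14 with all mice, the lowest being 8 without MRL 2 and 7 without MRL 4.

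With the replicate block, 0 members were called in any comparison. The pairing of mice by number has no source in the labels.

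Other scalings moved the median of all genes by at most 0.06 on the log2 scale. Sums of transcript counts equalled the gene counts for all 55536 genes, so that fit gave the same values. Groups of 3 and 4 mice limit the precision more than depth does, since every member had at least 4668 counts in each library.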
